A study of Rattus norvegicus with 5 samples.

Results

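The RNA content of the normal adult rat cornea was described from the 3 wild-type corneas among the 5 corneas of the series. They came from male wild-type rats of the Sprague-Dawley strain, 6 months old, with no treatment named in the labels. The other 2 corneas came from transgenic P1 hMR rats that overexpress human NR3C2, the mineralocorticoid receptor gene, and none of their values were used. Corneas were dissected from removed eyes, so each library mixes all layers of the tissue and whatever neighbouring tissue came with it. The protocol speaks of rats but gives no litter, day or time of day, and the SD printed below measures the spread between these 3 samples.

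Of 20339 genes in the gene table, 15820 had a count in at least 1 wild-type library and 14149 in all 3. Totals were 27692181, 20874010 and 21920046 expected counts in wild-type corneas 1, 2 and 3. Levels are given as CPM, the expected count of a gene scaled so that the genes of each library sum to 1000000. CPM is not divided by transcript length, so an order of genes below is an order of counts, in which a long transcript takes more reads than a short one present in as many copies. A count of 0 allows a level of up to 0.108, 0.144 and 0.137 CPM in corneas 1, 2 and 3 (3 counts, counting error only). In such bulk tissue, few cells of a type and little RNA per cell cannot be told apart.

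The cornea is the clear front wall of the eye. A stratified epithelium faces the tears, a stroma of ordered collagen fibrils made by keratocytes gives it strength and transparency, and an inner sheet of endothelial cells pumps fluid out of the stroma. The epithelium is renewed from basal and limbal cells at its rim, and it holds so much of a few soluble enzymes that these are called corneal crystallins.

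The 4 genes taken as markers of the tissue were present in every library. Krt12, the keratin particular to corneal epithelium, was at 37491, 44145 and 38657 CPM in corneas 1, 2 and 3. Aldh3a1, an aldehyde dehydrogenase and corneal crystallin, was at 31185, 34129 and 33997 CPM. Both belong to the epithelium and were the 2 most counted genes in the mean. Kera, the keratocan core protein made by keratocytes, was at 144, 168 and 174 CPM, and Slc4a11, a membrane transporter of the endothelium, was at 264, 232 and 249 CPM. For Kera and Slc4a11 the highest library was within 1.21 and 1.14 times the lowest.

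The sequences just before the start sites of Krt12, Krt5 and Kera are shown because these genes mark the epithelium and the stroma. In the bases shown, Krt12 holds the exact letters TATAAA, which Krt5 and Kera lack. Krt5 and Kera hold CCAAT, which Krt12 lacks. Each line gives the 100 bases before the RefSeq start site, 5′ to 3′ on the gene's strand, from build GRCr8, for the first keratin, its most counted fellow keratin and the stromal marker. Capitals mark TATAAA, the letters of a TATA box, and CCAAT, the letters of a CCAAT box, where they lie on the strand shown. Only these exact letters were searched, so the similar ataaaa of Krt5 stays unmarked.
Krt12, chr10:84874266-84874365, minus strand: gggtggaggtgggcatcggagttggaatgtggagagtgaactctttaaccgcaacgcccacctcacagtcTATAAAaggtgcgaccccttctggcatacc
Krt5, chr7:134730570-134730669, minus strand: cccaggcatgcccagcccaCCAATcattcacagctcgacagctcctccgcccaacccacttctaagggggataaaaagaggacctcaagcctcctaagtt
Kera, chr7:34284000-34284099, plus strand: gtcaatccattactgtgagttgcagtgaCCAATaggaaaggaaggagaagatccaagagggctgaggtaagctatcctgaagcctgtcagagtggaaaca

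In Krt12 the first base of TATAAA lies 30 bases before the start. TATAAA lay on the gene's strand between 40 and 16 bases before the start in 413 of the 27457 promoters of the table (1.5%) and in 90 of 8957 promoters of genes at 1 CPM or more in every cornea (1.00%). Among the 100 most counted genes, 62 had a promoter in the table and 5 of them (8.06%) held it there, namely Krt12, Aqp3, Plet1, Sptan1 and Rplp0. CCAAT, on either strand of the window from 250 bases before to 50 after the start, was in 37.7% of all promoters, 38.1% of those of detected genes and 24 of the 62 (38.7%). CACCC, letters shared by the sites of Kruppel-like factors, was searched in the same way. It was in 55.1% of all promoters, 62.9% of those of detected genes and 44 of the 62 (71.0%). Of the 30 most counted genes, 17 had a promoter in the table and 15 of them (88.2%) held it. It was in 20 of 22 promoters of the epithelium list used below (90.9%), 9 of 14 of the stroma list (64.3%) and 7 of 10 of the endothelium list. The letters GGGCGG, searched in the same way, were in 34.9% of all promoters, 64.3% of those of detected genes and 43 of the 62 (69.4%). They were in 12 of the 17 (70.6%), 13 of 22 of the epithelium list (59.1%), 9 of 14 of the stroma list and 5 of 10 of the endothelium list. The most counted genes and the epithelium list share members, such as Krt12 and Krt5. These counts describe letters in a window and were not tested.

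Epithelial keratins, crystallins and junction proteins headed the cornea's counts. Krt12 had a mean of 40098 ± 3553 CPM (SD, n = 3), Aldh3a1 33104 ± 1663 CPM and Krt5, the keratin that pairs with Krt12 in rodent corneal epithelium, 31709 ± 1090 CPM. These 3 genes held 9.92%, 11.03% and 10.5% of all counts in corneas 1, 2 and 3. Krt12 was above Aldh3a1 in every cornea and their ranges did not overlap, whereas the ranges of Aldh3a1 and Krt5 did. Next came the mitochondrially encoded Mt-co1, a subunit of cytochrome oxidase, at 15647, 14031 and 15958 CPM, and then a long step down.

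Genes of cell-to-cell and cell-to-matrix junctions were among the rest of the 30 most counted genes, as were further mitochondrially encoded genes. Dsp, the desmosomal plaque protein desmoplakin, was at 7603, 7523 and 8528 CPM, and the plakins Ppl and Evpl, which tie keratin filaments to the cell edge, were at 3536, 3463 and 3367 CPM and at 3317, 3352 and 3696 CPM. Perp, a desmosomal membrane protein, was at 3179, 3278 and 3209 CPM. Dsc3, a desmosomal cadherin, was at 2810, 2602 and 3458 CPM. Col17a1, the transmembrane collagen of hemidesmosomes that anchors basal cells, was at 3992, 3874 and 4392 CPM. Dsp, Evpl, Dsc3 and Col17a1 were each highest in cornea 3, and Ppl was lowest there.

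Membrane and metabolic genes of the epithelium stood beside them. Emp1, an epithelial membrane protein, was at 8010, 7498 and 7137 CPM, and Aqp5, a water channel of the corneal epithelium, was at 5184, 5708 and 5228 CPM. Tkt, transketolase of the pentose phosphate pathway and a second corneal crystallin, was at 4668, 5152 and 5103 CPM, lowest in cornea 1. Lypd2, a small surface protein of the Ly6 family, was at 3772, 3711 and 3455 CPM and the heparan sulphate proteoglycan Sdc1 at 3519, 3729 and 3669 CPM. ENSRNOG00000068307, given by its identifier only, ranked seventh at 5717, 6117 and 5652 CPM.

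The widest spread among the 30, by CV, was in 2 genes of the cytoskeleton. Tmsb4x, which binds actin monomers, was at 4478, 3484 and 2928 CPM, and Actg1, cytoplasmic gamma actin, at 5752, 5294 and 4003 CPM. Both were highest in cornea 1 and lowest in cornea 3. Actb, cytoplasmic beta actin, was at 3455, 3586 and 3589 CPM. Reads shared by the near-identical Actg1 and Actb can be divided differently between them, so the split of these 2 genes is uncertain. Of the 30 steps from one gene to the next in the order of means, only 4 separated genes whose ranges did not overlap: Krt12 over Aldh3a1, Krt5 over Mt-co1, Mt-co1 over Dsp, and Emp1 over ENSRNOG00000068307.

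**Figure D1:**
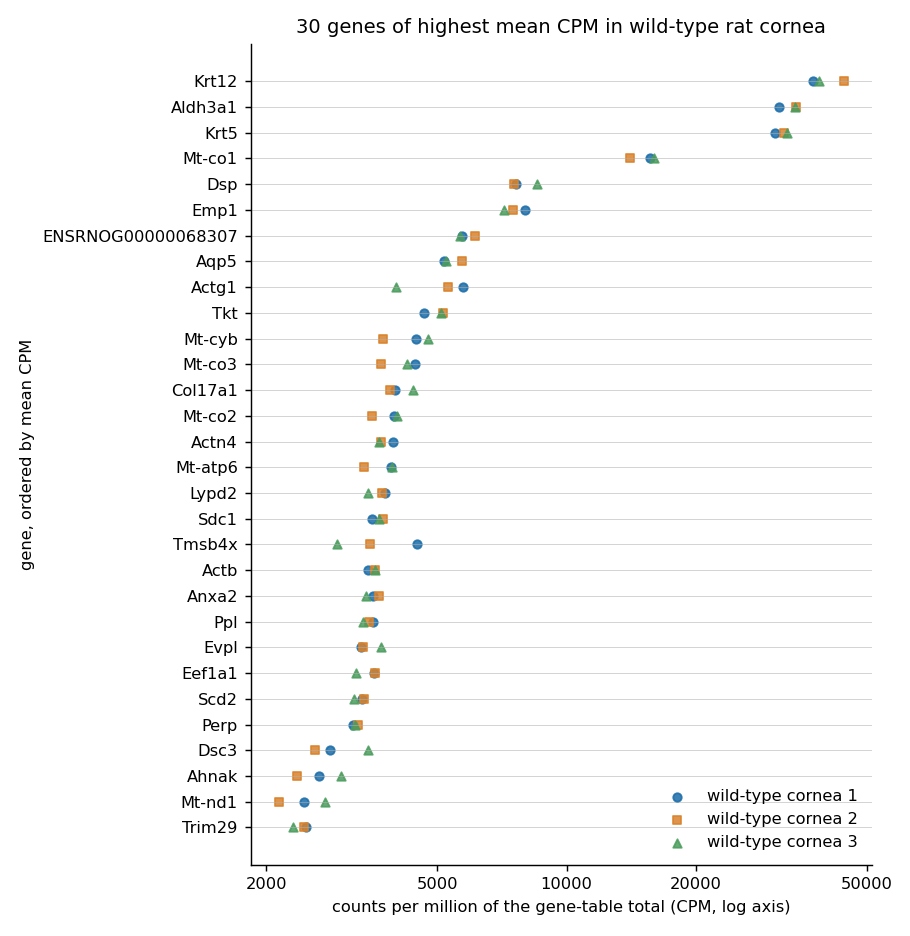
The 30 genes of highest mean CPM, ordered by mean, with 1 symbol for each wild-type cornea on a log axis of CPM. Krt12, Aldh3a1 and Krt5 stand apart from all other genes in all 3 corneas, while from Dsp downwards most neighbouring genes overlap.

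Counts were concentrated in few genes. The 10 most counted genes held 15.7% ± 0.492 of all counts (SD, n = 3), the 100 most counted 31.7% ± 0.423 and the 1000 most counted 59.8% ± 0.379, and 531 genes held 50% of the counts. At the other end, 11695 genes, 57.5% of the table, reached 1 CPM in every cornea, 8371 reached 10 CPM, 1802 reached 100 CPM and 67 reached 1000 CPM. That 57.5% is the background for the counts of list members below.

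The epithelium dominated the marker lists. Of 35 epithelial markers in the gene table, 33 reached 1 CPM in every cornea, and together they summed to 136235, 147610 and 142331 CPM. Krt12, Aldh3a1, Krt5, Dsp, Tkt and Lypd2 led the list. The transcription factors that specify corneal epithelium were lower: Klf4 was at 1270, 1199 and 1149 CPM, the ETS factor Elf3 at 1045, 1047 and 824 CPM and Pax6, the eye's master regulator, at 499, 507 and 474 CPM. Upk1b, a uroplakin of the surface cells, was at 930, 992 and 958 CPM, and Slurp1, a secreted Ly6 protein, at 442, 496 and 370 CPM. The markers under 1 CPM in some library were Ly6d, at 2.49, 1.10 and 0.958 CPM, and the keratin Krt76, at 0.0361, 0.431 and 0.411 CPM.

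Basal and limbal markers summed to 10331, 9753 and 10791 CPM, with 16 of 19 members at 1 CPM or more in every cornea. After Col17a1 came Krt14, the basal-cell keratin, at 1596, 1498 and 1544 CPM, and the hemidesmosomal integrin chains Itgb4, at 1207, 1062 and 1110 CPM, and Itga6, at 535, 526 and 524 CPM. Gpha2, a glycoprotein hormone chain that marks limbal cells, was at 636, 532 and 608 CPM. Tp63, the p63 factor of basal epithelia, was at 278, 322 and 395 CPM. Of the transporters used to mark limbal stem cells, Abcg2 was near the detection level at 0.867, 1.10 and 1.46 CPM and Abcb5 had no count in any cornea.

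Conjunctival and goblet-cell markers split. Their sum was 8144, 9934 and 9750 CPM, but 57.9% of it (in the mean) was Aqp5, which corneal epithelium also makes. The mucosal keratins Krt13, at 1608, 2536 and 2827 CPM, and Krt4, at 1017, 1163 and 1375 CPM, were well detected, both lowest in cornea 1. Krt7 was at 199.98, 357 and 197 CPM and Krt8 at 128, 166 and 116 CPM, both highest in cornea 2. The secreted goblet-cell products Muc5b, Tff1 and Tff3 had no count in any cornea, and 6 of 13 members reached 1 CPM in every cornea. Spdef, of the same list, was at 2.82, 0.431 and 3.70 CPM.

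Stromal markers summed to 3797, 3817 and 3868 CPM, and all 28 members in the gene table reached 1 CPM in every cornea. Col12a1, a collagen that decorates fibrils, was at 653, 652 and 804 CPM, and Col1a1, a chain of the main fibrillar collagen, at 622, 617 and 529 CPM. The small leucine-rich proteoglycans, which space the fibrils, followed: Dcn (decorin) at 558, 576 and 559 CPM, Fmod (fibromodulin) at 352, 290.3 and 329 CPM, Bgn (biglycan) at 343, 291 and 336 CPM and Lum (lumican) at 223, 258 and 232 CPM. Members that differed over 2-fold between corneas were Angptl7, a secreted angiopoietin-like protein, at 43.6, 80.7 and 113 CPM, Ptgds, a prostaglandin synthase, at 21.1, 6.23 and 17.1 CPM, and Thy1, at 5.74, 4.74 and 2.60 CPM. The intermediate filament gene Vim was at 56.2, 50.8 and 44.4 CPM.

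Endothelial markers summed to 2403, 2285 and 2459 CPM, with 20 of 21 members at 1 CPM or more in every cornea. The list is led by genes that other corneal cells also use, the tight-junction scaffold Tjp1 at 578, 535 and 530.3 CPM and the water channel Aqp1 at 449, 393 and 398 CPM, so its sum is not that of endothelial cells alone. Col8a2, a collagen of Descemet's membrane, was at 231, 227 and 271 CPM. Slc4a4, the sodium bicarbonate carrier of the endothelial pump, was at 13.2, 11.7 and 18.8 CPM, and Zp4 had no count.

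Within each cornea the epithelial sum was 35.9, 38.7 and 36.8 times the stromal sum, and the stromal sum 1.58, 1.67 and 1.57 times the endothelial sum. The order of these 3 lists was therefore the same in all 3 corneas. The ratios depend on which markers a list holds and on transcript lengths, and they are not cell proportions.

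Nerve, muscle, vessel and immune markers summed to far less than the stromal list. Smooth muscle and iris markers summed to 278, 280.0 and 255 CPM and Schwann-cell and nerve markers to 277, 245 and 252 CPM, led by the myelin gene Mbp at 102, 83.7 and 70.7 CPM. Leukocyte markers summed to 145, 133 and 129 CPM, with 11 of 26 members at 1 CPM or more in every cornea. Cd68, a lysosomal protein of macrophages, was at 48.8, 54.9 and 42.6 CPM, the pan-leukocyte Ptprc at 2.06, 1.63 and 2.33 CPM, and the B-cell marker Ms4a1 had no count. All 12 blood-vessel markers were detected in every cornea and summed to 115, 100.1 and 96.3 CPM, with Vwf at 23.7, 20.3 and 26.7 CPM. Pdpn made up most of the lymphatic sum, and the lymphatic factor Prox1 was at 0.217, 0.144 and 0.0912 CPM.

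Markers of tissues that border the cornea, of muscle and of blood were low and uneven. Lens markers summed to 158, 37.5 and 30.8 CPM, pigment-cell markers to 53.7, 13.5 and 40.01 CPM, retinal markers to 26.8, 7.23 and 12.1 CPM, skeletal muscle markers to 36.8, 20.2 and 15.9 CPM and red-cell markers to 14.9, 3.58 and 7.16 CPM. Cornea 1 was highest on each of these 5 lists. The haemoglobin chains Hba-a1, at 8.92, 2.20 and 4.56 CPM, and Hbb-bs, at 5.84, 1.14 and 2.46 CPM, have near-identical copies and are uncertain. The part of these markers in other results was not tested.

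**Figure D2:**
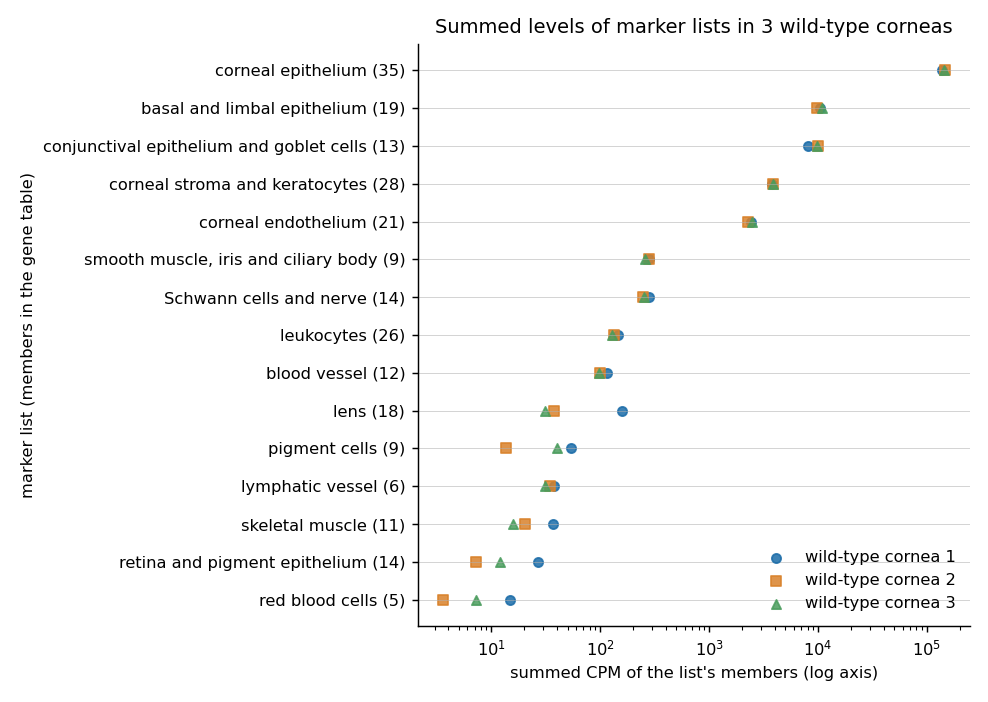
Summed CPM of 15 lists of cell-type markers in each wild-type cornea, on a log axis; the number of members in the gene table is in brackets. The corneal layers nearly coincide between corneas, whereas the lens, pigment, skeletal muscle, retina and red-cell sums stand highest in cornea 1. Nerve, leukocyte and vessel sums are also highest there, by less.

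In each gene family examined, the same member was the most counted in all 3 corneas. Among 21 keratins Krt12 held 50.7% ± 1.79 of the counts (SD, n = 3) and Krt5 held 40.2% in the mean, and the ratio of Krt12 to Krt5 was 1.23, 1.38 and 1.18. Aldh3a1 held 97.5% ± 0.0642 of the counts of 9 aldehyde dehydrogenases and exceeded Aldh1a1, the other main cytosolic form, 58.3, 55.7 and 61.8 times. Tkt took nearly all transketolase counts, as Tktl1 had 1 count in cornea 1 and none elsewhere. Pax6 held 99.5% ± 0.0282 of the counts of 8 Pax factors, and Klf4 53.9% ± 2.32 of those of 15 Kruppel-like factors, ahead of Klf3.

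In families of the extracellular matrix the leading share varied widely. Dcn held 33.7% ± 1.40 of small leucine-rich proteoglycan counts and was 1.58, 1.98 and 1.70 times Fmod. Col1a1 held 61.8% ± 1.24 of the counts of 10 fibrillar collagen chains, ahead of Col5a2. The list names 11 chains, but Col1a2 was not matched by name in the gene or isoform table. Col1a1 therefore leads only among these 10. Col4a1, of basement membranes, held 23.9% ± 1.72 of collagen IV and VIII counts and was 1.15, 1.44 and 1.13 times Col8a2. Timp3 held 77.1% ± 5.74 of the counts of the 3 metalloproteinase inhibitors in the gene table, ahead of Timp1, but these summed to only 28.6, 22.2 and 30.3 CPM. Timp2, which is in the isoform table alone, was higher there than that sum, as given below, so Timp3 leads only among these 3.

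Transport and junction families each had a clear leader. Aqp5 held 71.4% ± 1.04 of aquaporin counts and was 3.16, 3.279 and 3.00 times the glycerol and water channel Aqp3. Atp1b3 led the beta chains of the sodium pump, at 4.40, 4.99 and 2.94 times Atp1b1. Slc4a11 held 69.9% ± 1.36 of SLC4 carrier counts, ahead of the anion exchanger Slc4a2. Gjb2 held 54.6% ± 1.34 of connexin counts ahead of Gja1, and Cldn4 held 54.3% ± 1.01 of claudin counts ahead of Cldn23. Dsc3 held 48.6% ± 2.76 of desmosomal cadherin counts ahead of Dsg1.

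Among enzymes of sugar breakdown Ldha held 82.3% ± 1.42 of lactate dehydrogenase counts, Aldoa 96.8% ± 0.866 of aldolase counts, Eno1 96.8% ± 0.901 of enolase counts and Hk1 72.8% ± 1.61 of hexokinase counts. By named isoforms Hk1 was at 0 and Hk2 led. Slc2a1 led the sugar carriers with 60.7% ± 4.86 and Slc16a7 the monocarboxylate carriers with 66.6% ± 4.16. Of enzymes that remove peroxide and superoxide, Gpx2 held 56.5% ± 2.46 of glutathione peroxidase counts. Prdx2 held 43.2% ± 1.85 of the counts of the peroxiredoxins in the gene table, which holds 5 of the 6 listed. Sod2, the mitochondrial form, held 60.2% ± 0.332 of superoxide dismutase counts. Ca5b led the carbonic anhydrases with 57.8%, 43.6% and 41.3% in corneas 1, 2 and 3, the widest spread of a leading share, and by named isoforms its mean share was 71.5%. Hspa1b led the HSP70 chaperones with 51.4% ± 3.10, but its reads are shared with the near-identical Hspa1a and its value is uncertain.

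**Figure D3:**
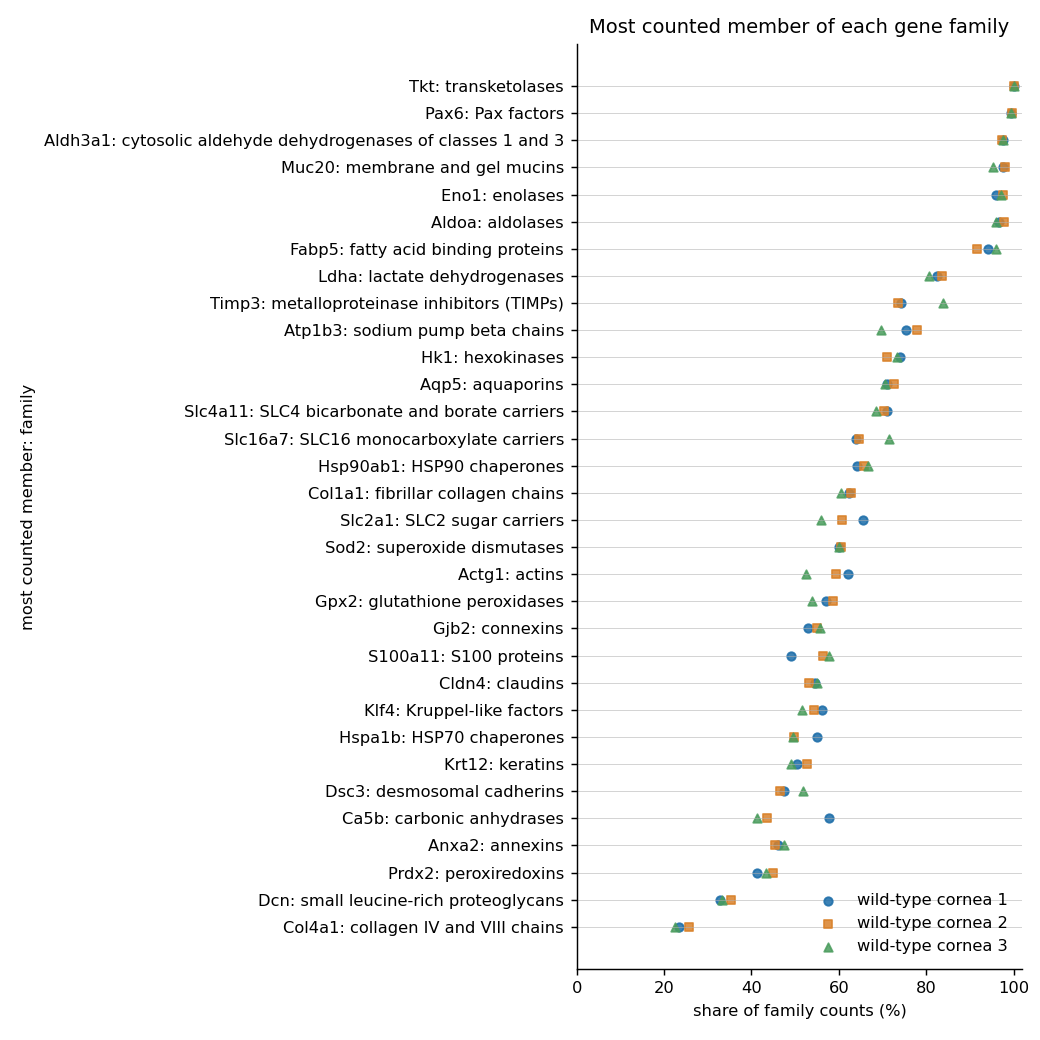
Share of a family's counts (%) held by its most counted member in each wild-type cornea, for 32 families. Shares run from near 100% for Tkt, Pax6 and Aldh3a1 to 23.9% in the mean for Col4a1, and most leaders differ little between corneas, with Ca5b the most spread.

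The 3 corneas ranked their genes almost alike. Across genes, Pearson's r of log2(CPM + 0.5) was 0.995 for each pair of corneas, a description over genes that are not independent of each other. Among 12050 genes with a mean of at least 1 CPM, the median coefficient of variation (CV, SD over mean) was 9.72%, and 609 genes (5.05%) differed over 2-fold between the highest and the lowest cornea. The CV fell with level, from a median of 18.3% at 1 to 10 CPM to 8.50% at 10 to 100 CPM. It was 6.66% at 100 to 1000 CPM and hardly lower, at 6.63%, from 1000 CPM. Counting alone would give medians of 10.7%, 3.73%, 1.62% and 0.470%, so the spread between corneas exceeded that of counting at each level. Of 75 genes at 1000 CPM or more, the 2 that differed over 2-fold were Mal, a membrane-sorting protein, at 1706, 3177 and 1539 CPM, and Tgm2, a transglutaminase, at 1330, 1901 and 676 CPM.

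**Figure D4:**
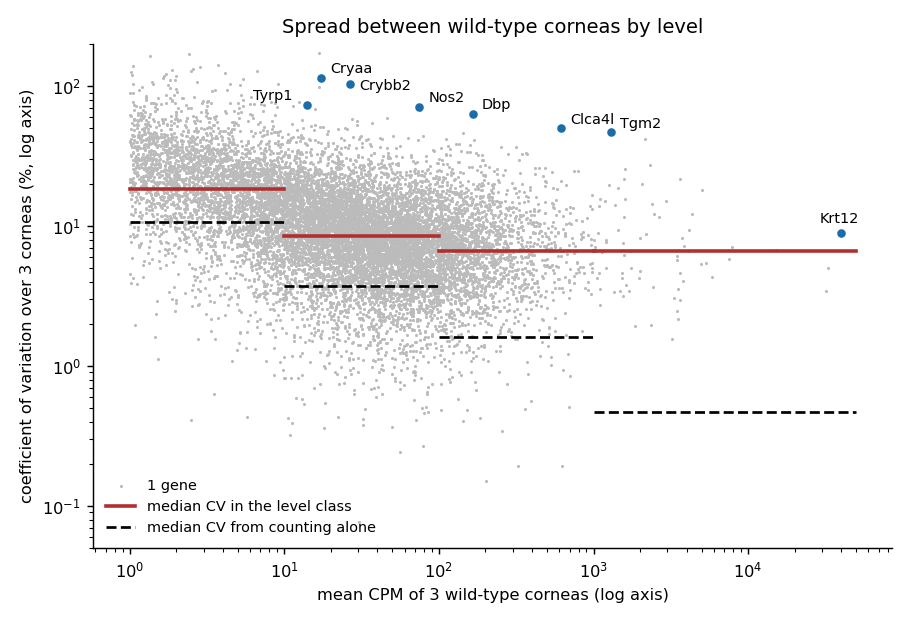
CV over the 3 wild-type corneas against mean CPM for genes with a mean of at least 1 CPM, both on log axes; red lines are the median CV in a level class and dashed lines the median CV from counting alone. The median falls from 18.3% to 6.66%, and above 10 CPM it stays well over the counting line.

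Epithelial markers and cell-cycle genes had lower median CVs than all genes, in a comparison not matched for level. With a mean of at least 10 CPM the median CV was 8.04% for all genes. At that level it was 6.01% for epithelial markers, 7.95% for cell-cycle genes and 8.39% for endothelium. It was 10.9% for basal and limbal markers, 12.4% for stroma and 19.3% for conjunctival markers. The values that follow include members from 1 CPM. Most epithelial markers averaged over 100 CPM. Of all genes at 100 to 1000 CPM, 0.723% differed over 2-fold and the median CV was 6.66%, close to that of the epithelial list. At 1 to 10 CPM 15.3% of genes differed over 2-fold. Of epithelial markers with a mean of at least 1 CPM, 1 of 34 differed over 2-fold, against the 5.05% of all genes. The list's median CV was 6.30% against 9.72%. The other layers had larger median CVs than all genes: 10.2% for endothelium, with 2 of 20 over 2-fold, 11.7% for basal and limbal markers, with 1 of 17, 15.8% for stroma, with 3 of 28, and 19.3% for conjunctival markers, with 1 of 7. None of 19 cell-cycle genes differed over 2-fold, and their median CV was 7.95%. Among them the proliferation marker Mki67 was at 152, 122 and 169 CPM and Top2a, the topoisomerase of dividing cells, at 129, 109.6 and 128 CPM. Interferon-response genes had a larger median CV than all of these lists, at 25.1%, with 3 of 15 over 2-fold. Rsad2, an antiviral enzyme, was at 71.2, 52.4 and 27.1 CPM.

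Circadian clock genes were uneven, with 10 of 17 over 2-fold and a median CV of 37.4%. Of the 17, 11 were highest in cornea 3 and 12 were lowest in cornea 1, where 37.4% of the 12050 genes were highest in cornea 3 and 29.5% lowest in cornea 1. Dbp, a clock-output factor, was at 66.2, 156 and 274 CPM, the repressor Nr1d1 at 204, 308 and 437 CPM, Tef at 78.5, 140.2 and 211 CPM and Per2 at 14.2, 27.4 and 47.2 CPM, each with cornea 3 highest and cornea 1 lowest. Arntl, which drives the clock and peaks opposite to these genes, was the other way round, at 45.4, 28.9 and 14.1 CPM. Its partner gene Npas2 was at 21.7, 9.29 and 8.12 CPM, also highest in cornea 1. Per1 was at 17.6, 72.1 and 49.3 CPM, with cornea 2 highest. Clock itself was near level at 388, 339.8 and 358 CPM.

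Immediate-early genes, which respond to stimuli within minutes, were highest in cornea 1 for 13 of 15 members, and 7 of 15 differed over 2-fold. Of the 12050 genes 33.6% were highest in cornea 1, and of the 609 over 2-fold 293 were. Nr4a1 was at 9.93, 1.77 and 0.639 CPM and Fosb at 6.03, 3.02 and 1.00 CPM. The more abundant Jund was at 124, 99.8 and 78.4 CPM and Zfp36 at 137, 114 and 95.3 CPM. Lens markers behaved alike: 8 of 11 differed over 2-fold and 10 of 11 were highest in cornea 1. The lens crystallins Crybb2, at 58.1, 12.6 and 8.90 CPM, and Cryaa, at 40.05, 6.85 and 5.02 CPM, led them. Of pigment markers 4 of 5 differed over 2-fold, and Tyrp1, a melanosome enzyme, was at 23.1, 2.87 and 16.3 CPM and the melanosome protein Pmel at 15.5, 2.63 and 8.99 CPM, both lowest in cornea 2. All 4 retinal markers with a mean of at least 1 CPM differed over 2-fold.

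**Figure D5:**
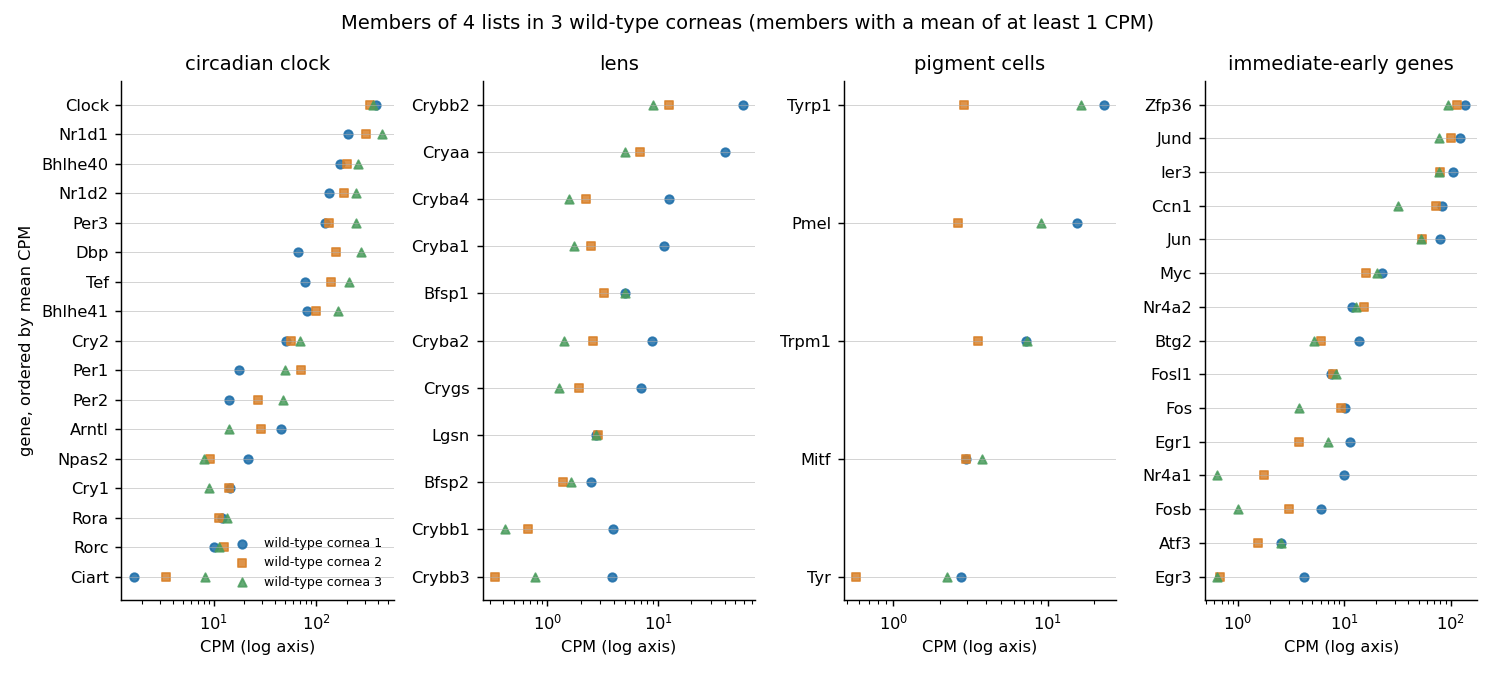
CPM of the members of the clock, lens, pigment and immediate-early lists in each wild-type cornea, on log axes. Most clock genes stand highest in cornea 3, most lens and immediate-early genes highest in cornea 1, and the most spread pigment genes lowest in cornea 2.

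Single genes with large differences were few at higher levels: 98 of 8714 genes with a mean of at least 10 CPM differed over 2-fold. The largest was Poteg, of a multigene ankyrin-repeat family and so uncertain, with 1394, 0 and 1 counts, at least 350-fold higher in cornea 1 than the floor of cornea 2. Nos2, the inducible nitric oxide synthase, was at 96.7, 113 and 14.2 CPM, low in cornea 3 only. Ggta1, which adds terminal galactose to glycans, was at 118, 19.5 and 87.0 CPM and the class I histocompatibility gene RT1-A1, of a family of near-identical copies, at 37.7, 8.93 and 35.6 CPM, both low in cornea 2. Slpi, a protease inhibitor of mucosal surfaces, was at 10.5, 19.9 and 3.70 CPM. Cyp1a1, an enzyme induced through the aryl hydrocarbon receptor, was at 23.1, 4.36 and 9.95 CPM and Nipal4, a membrane protein of keratinocytes, at 35.9, 7.67 and 6.93 CPM, both highest in cornea 1. LOC501233 was at 27.0, 5.37 and 15.2 CPM. At the other extreme, Zfp280d had a mean of 30.5 CPM with a CV of 0.0774%, and Marchf8, a ubiquitin ligase, 203 CPM with a CV of 0.152%.

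The isoform table added genes whose names the gene table lacks. There were 1430 such names, which held 1.11% of isoform counts, and 291 of them averaged 1 CPM or more. Values here are CPM of the isoform table's own total. Krt15, a keratin of basal and limbal epithelium, was at 398, 341 and 401 CPM, and Krt19, another limbal keratin, at 18.1, 17.0 and 19.3 CPM. The proteoglycan Ogn was at 33.6, 25.8 and 26.5 CPM and Timp2, a metalloproteinase inhibitor, at 64.8, 55.5 and 56.7 CPM. The most counted of these names were LOC100912380 at 456, 489 and 506 CPM and Csnk1a1, a casein kinase, at 406, 415 and 385 CPM, followed by Krt15, the ribosomal protein gene Rpl7a at 381, 367 and 389 CPM and the tubulin Tuba1a at 359, 339 and 369.7 CPM. Isoforms without a gene name held 23.0% of isoform counts in the mean, so a sum over named isoforms can miss part of a gene.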

How the data were processed

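The authors deposited tables of estimated counts (expected counts) per gene and per isoform, neither scaled nor logged as deposited. Tools named in the submitters' processing notes, without role or order, are RSEM 1.2.28, STAR 2.5.3a, fastp, FastQC, edgeR 3.28.0 and DESeq2 1.26.0, with build rn6. Use of strand in counting: not given in the sources used here. Whether the reads of a gene and of its antisense partner were separated is therefore not known. The 3 wild-type columns were matched to the labels by the samples' descriptions, and 2 columns of the other group in each table were not used.

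CPM was computed from column totals (Python 3.11.15, pandas 2.3.3). With 1 group of 3 there is no test and no p-value: values are given per library, as mean ± SD, CV and the ratio of highest to lowest library. A library at 0 was set to 3 counts for that ratio. The common biological coefficient of variation came from edgeR 4.0.16 in R 4.3.3 on rounded expected counts of genes passing filterByExpr (minimum count 10). DESeq2 1.42.0 was an alternative, with the median dispersion over genes in place of a common one. The edgeR estimate was tested on simulated counts of known spread, which does not test its value in these corneas.

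Members and the 53 lists were chosen with earlier results of these data known. Of 587 list names, 516 were in the gene table, 17 more by a RefSeq synonym and 12 in the isoform table only. Named are the 30 most counted genes, the 4 markers and the 6 highest members of each cell-type or state list, the first 2 of each family, the 12 of largest ratio and 5 of smallest CV at a mean of at least 10 CPM, and the 5 highest names of the isoform table alone. Some of these stay in their counts and sums but are not reported here by name, and other list members, with Mal and Tgm2, were chosen after their values were seen. Promoters are RefSeq sequences of GRCr8, matched by symbol for 421 of 598 top or list genes.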

Additional observations from a re-analysis of the deposited data

How the results depend on the processing

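The number of genes over 2-fold depended on the settings. From 609 it went to 98 with a mean of at least 10 CPM, to 3636 with no filter on the mean, to 1938 at a threshold of 1.5-fold (chosen after seeing the data), and to between 292 and 328 when 1 cornea was left out, since 2 libraries span less than 3. Leaving the mitochondrially encoded genes out of the total raised the epithelial sum to 148225 CPM, the stromal sum to 3994 CPM and the endothelial sum to 2486 CPM, and put 29.7% of counts in the 100 most counted genes. From isoform rows of the same name, Aldh3a1 held 97.6%, Dcn 38.6%, Ca5b 71.5% and Actg1 93.0% of their families, and 31 of 33 families kept their most counted member; Hk2 replaced Hk1, which had no named isoform row with counts, and Anxa8 replaced Anxa2. Leaving out any 1 cornea kept the most counted member in all 33. The common biological coefficient of variation was 13.5%, 11.7% for genes of at least 10 CPM, and 12.8% to 14.3% without 1 cornea. Leaving out 1 cornea moved the median CV of a list by over 10% of its value in 46 cases and by less in 11. CPM per kilobase of coding sequence was not run, as coding lengths were not used here. No paired analysis was possible because 1 group is described and no groups are compared.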

Other observations

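Mitochondrially encoded genes held 4.39%, 3.68% and 4.44% of counts in corneas 1, 2 and 3, lowest in cornea 2, and cytosolic ribosomal protein genes held 1.77%, 1.63% and 1.56%. The 44 keratin genes of the table held 7.53%, 8.45% and 7.96%, and the 41 collagen genes 0.778%, 0.779% and 0.847%. Of the 98 genes with a mean of at least 10 CPM that differed over 2-fold, 44 were highest in cornea 1, 22 in cornea 2 and 32 in cornea 3.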
